A study of Mus musculus with 10 samples.

Results

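Osteoclasts are large multinucleate cells that form by fusion of precursors of the monocyte lineage and dissolve bone. RANK ligand, made largely by cells of the osteoblast lineage and by lymphocytes, binds its receptor RANK on the precursors, and osteoprotegerin is a secreted decoy that holds the ligand away from the receptor. In the amputated mouse digit tip, osteoclasts erode the stump of the terminal bone before the blastema, the mass of proliferating cells from which the tip regrows, takes over. The 10 genes described here were taken by name from the table of 21729 protein-coding genes, and each name matched 1 gene. They are Tnfsf11 (RANK ligand), Tnfrsf11a (RANK) and Tnfrsf11b (osteoprotegerin), the receptors Oscar and Calcr, the fusion proteins Dcstamp and Ocstamp, and the resorption genes Atp6v0d2, Acp5 and Ctsk.

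Digit tip blastemas were sequenced from mice on a mixed CD1 and C57Bl/6 background, each library pooling 6 amputated central digits of the hindlimb. Mutants carried ΔLARM1/2, a deletion of limb enhancers of the homeobox gene Lmx1b, and their controls were wild type. The groups were mutant at 12 days post amputation (dpa, age 33 days, n = 3), wild type at 12 dpa (n = 2), mutant at 14 dpa (age 35 days, n = 3) and wild type at 14 dpa (n = 2). The series calls them biological replicates, and the labels do not say how many animals gave the 6 digits of a library.

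Each library held 69998104 to 101632364 expected counts in all. Lmx1b stood at 0.0278 to 0.336 CPM (counts scaled to a common library size) in mutants, against 1.69 to 2.94 CPM in wild type libraries, so every library matched its title on this gene. Mutant 14 dpa replicate 1, so titled, has a genotype tag of wild type and was kept as mutant. Of the gene lists used as cell type markers, osteoblast and osteocyte genes summed to 1162 to 5129 CPM in mutants, against 6877 to 12700 CPM in wild type libraries. Col1a1 alone made up most of those sums, with means of 3161 CPM in mutants and 10073 CPM in wild type libraries. Endothelial genes summed to 40.3 to 82.0 CPM in mutants and to 201 to 252 CPM in wild type libraries. Keratinocyte genes summed to 50610 to 115500 CPM in mutants and to 28650 to 51000 CPM in wild type libraries, and were the list of these 3 that overlapped. In such bulk tissue, fewer cells of a type and less RNA per cell cannot be told apart.

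One library stood apart in these genes. Mutant 12 dpa replicate 3 was the highest of the 10 libraries in 8 of the 9 genes that passed the filter on low counts, against a background of 11.6% of all 20216 genes tested. Results that rest on it are given with and without it. The library was singled out by its values in these same genes, so leaving it out was bound to lower their mutant means.

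Mutant 12 dpa replicate 3 was the highest library for Tnfsf11, which lies upstream of the pathway, and for the osteoclast genes Oscar and Ctsk. The promoters of these 3 genes are shown. They run 250 bases up to the transcription start, 5′ to 3′ on the gene's strand, from RefSeq on build GRCm38.p6, which is not the build GRCm39 named in the submitters' processing notes. The windows are chr14:78308044-78308293 on the minus strand for Tnfsf11, chr7:3616158-3616407 on the minus strand for Oscar and chr3:95498960-95499209 on the plus strand for Ctsk. Capitals mark matches, on either strand, to GGAAA (the NFAT core), GAGGAA (the PU.1 core), TGANTCA (AP-1) and CANNTG (the E-box bound by MITF and many other factors).
Tnfsf11: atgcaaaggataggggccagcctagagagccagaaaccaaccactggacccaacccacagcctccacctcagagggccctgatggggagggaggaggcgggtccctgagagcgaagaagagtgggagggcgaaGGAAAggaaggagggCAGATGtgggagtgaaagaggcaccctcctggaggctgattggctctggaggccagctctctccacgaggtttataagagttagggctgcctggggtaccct
Oscar: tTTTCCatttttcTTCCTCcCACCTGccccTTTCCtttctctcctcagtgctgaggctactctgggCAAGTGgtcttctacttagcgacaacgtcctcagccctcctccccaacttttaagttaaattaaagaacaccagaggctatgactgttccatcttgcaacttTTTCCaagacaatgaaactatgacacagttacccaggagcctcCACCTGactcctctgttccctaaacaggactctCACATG
Ctsk: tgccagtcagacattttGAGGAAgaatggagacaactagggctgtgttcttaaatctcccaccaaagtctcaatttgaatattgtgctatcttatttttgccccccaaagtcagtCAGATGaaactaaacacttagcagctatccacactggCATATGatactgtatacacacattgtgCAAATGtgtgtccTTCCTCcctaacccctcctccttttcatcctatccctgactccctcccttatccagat
Counted over 300 bases, which add the first 50 bases of the transcript, Oscar held 4 matches to GGAAA, 2 to GAGGAA and 4 to CANNTG. Ctsk held 1, 2 and 3 matches to the same motifs in that order, and Tnfsf11 held 1, 0 and 1. One GGAAA match of Oscar overlapped a GAGGAA match. The same window of all 32851 promoters in the table held GGAAA in 61.3%, GAGGAA in 28.3%, CANNTG in 72.3% and TGANTCA in 7.81%, and no TGANTCA match was found for the 3 genes. The table matched 6 of the 10 genes, and Tnfrsf11b, Dcstamp, Ocstamp and Atp6v0d2 are named only. In the matched genes not shown, GAGGAA had 0 matches at the start site of Tnfrsf11a, the 2 of Calcr and the 3 of Acp5.

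Levels are compared between genes as TPM, the transcript abundance after scaling by length. Ctsk and Acp5 were far above the others. Ctsk, the protease that digests bone collagen, ran from 23.2 to 392.2 TPM in mutants and from 44.5 to 98.3 TPM in wild type libraries. Acp5, the tartrate-resistant acid phosphatase used to stain osteoclasts, ran from 40.4 to 178 TPM in mutants and from 26.0 to 77.1 TPM in wild type libraries, so the 2 genes overlapped each other in both genotypes. The next 7 genes, from Atp6v0d2 (0.37 to 5.92 TPM in mutants and 0.81 to 3.48 TPM in wild type) down to Oscar (0.08 to 0.77 TPM in mutants and 0.14 to 0.46 TPM in wild type), overlapped their neighbours over all libraries. Calcr, the calcitonin receptor of mature osteoclasts, was lowest, at 0 to 0.05 TPM in mutants and 0 to 0.01 TPM in wild type libraries. It had 27 counts in all 10 libraries together and at most 14 in one, mutant 12 dpa replicate 3, and did not pass the filter, so it was not tested.

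**Figure D1:**
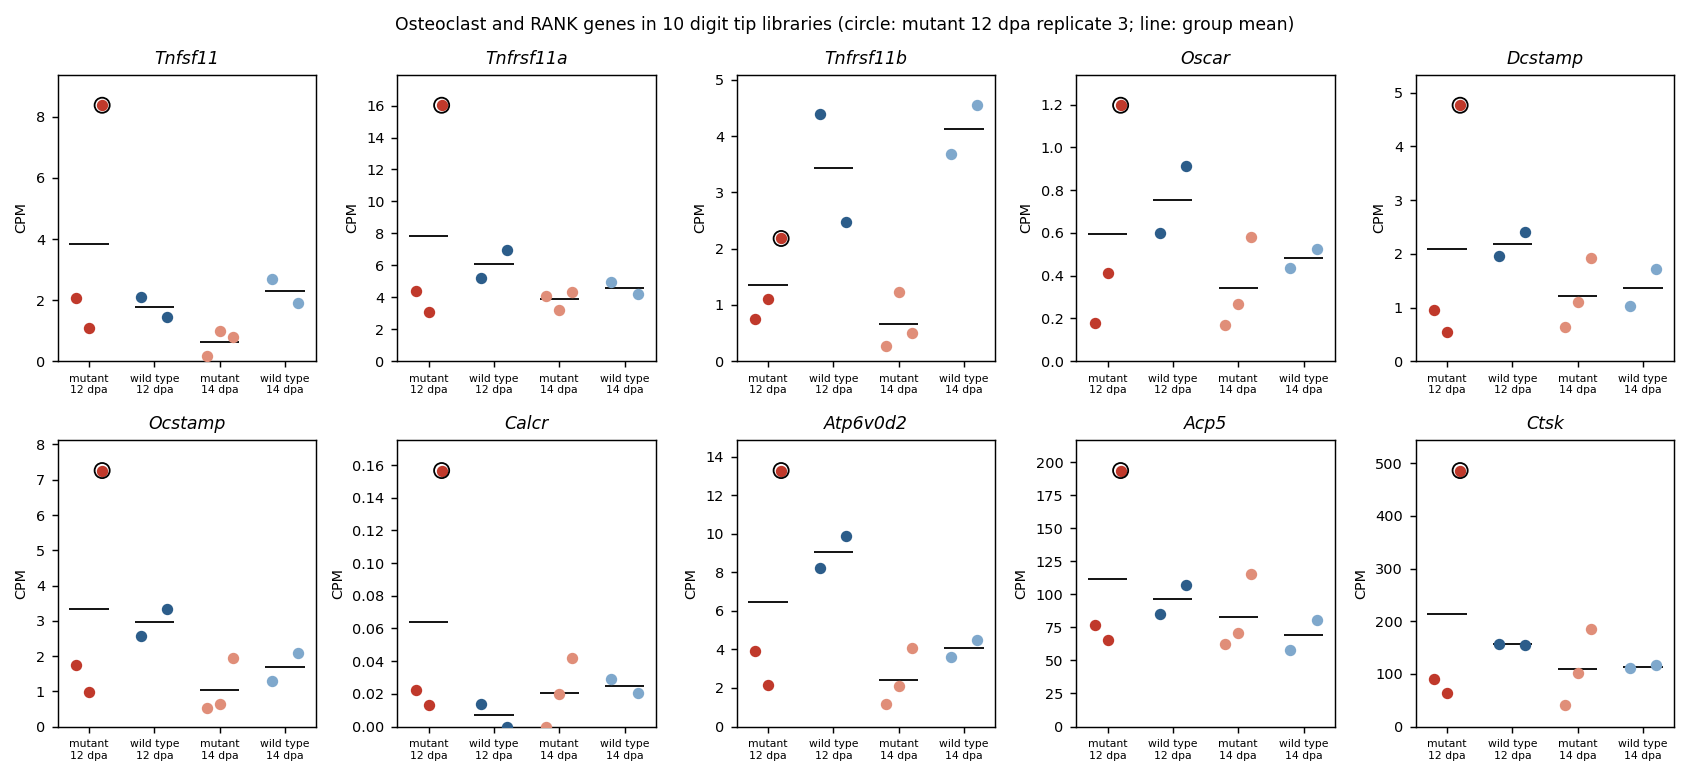
CPM (vertical axes from 0) of the 10 genes in each library, with mutant left of wild type at 12 and at 14 days post amputation (dpa); points are libraries, lines are group means and the circled point is mutant 12 dpa replicate 3. The circled library is the highest of all 10 in each panel but that of Tnfrsf11b, where all 6 mutant libraries lie below all 4 wild type libraries.

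Tnfrsf11b, the decoy, was the gene of the set called lower in mutants with all 10 libraries, 3.93-fold over both days, while Tnfrsf11a, the receptor, overlapped between genotypes. Tnfsf11, the ligand, overlapped at 12 dpa and was lower in each mutant than in each wild type library at 14 dpa. All 3 log2 fold changes were negative at 14 dpa (-1.83 for Tnfsf11, -0.24 for Tnfrsf11a and -2.61 for Tnfrsf11b), and over both days without mutant 12 dpa replicate 3 (-1.01, -0.47 and -2.25 in the same order). No test compared the 3 genes with each other.

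Tnfrsf11b (ENSMUSG00000063727) had 0.754, 1.11 and 2.18 CPM in mutants at 12 dpa, against 4.39 and 2.48 CPM in wild type. At 14 dpa it had 0.273, 1.23 and 0.50 CPM in mutants, against 3.69 and 4.55 CPM in wild type. In CPM no mutant library reached the lowest wild type library on either day, which held for 1 of the 9 genes and for 19.3% of all genes over both days, and for 26.0% at 12 dpa, although mutant 12 dpa replicate 3 came close to it, and in TPM that library (0.87) lay above wild type 12 dpa replicate 2 (0.78) and wild type 14 dpa replicate 1 (0.74). Over both days the means were 1.01 ± 0.678 CPM in mutants (SD, n = 6) and 3.78 ± 0.943 CPM in wild type (SD, n = 4). That is a log2 fold change of -1.98 (SE 0.43), which passed (adjusted p = 0.0058, edgeR quasi-likelihood test with Benjamini-Hochberg adjustment over 20216 genes). It was 1 of 9 genes tested here to pass, against 43.7% of all genes in this contrast, and 22.2% of all genes were called lower. At 14 dpa the log2 fold change was -2.61 (SE 0.61, edgeR adjusted p = 0.0134), where 17.2% of all genes were called lower. At 12 dpa it was -1.35 (SE 0.60, edgeR adjusted p = 0.149) and did not pass. The difference between the days was not called (-1.26, SE 0.86, edgeR adjusted p = 0.697). With mutant 14 dpa replicate 1 counted as wild type, as its tag has it, no call was left (-1.52 over both days, edgeR adjusted p = 0.184, and -1.70 at 14 dpa, edgeR adjusted p = 0.591). The Lmx1b level of that library matched its mutant title, not its tag. The 14 dpa value also failed to pass without wild type 14 dpa replicate 2 (-2.50, edgeR adjusted p = 0.0621) and among male libraries (-3.31, edgeR adjusted p = 0.0518), and without mutant 14 dpa replicate 2 the value was -3.41. Osteoblast lineage genes, whose cells are a main source of osteoprotegerin in bone, were lower in mutants too by the sums given above. Those sums were mostly Col1a1, and the part of these genes in the result was not tested.

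Tnfsf11 (ENSMUSG00000022015) had 2.06, 1.10 and 8.38 CPM in mutants at 12 dpa, against 2.11 and 1.46 CPM in wild type. The libraries of 14 dpa gave 0.182, 0.974 and 0.777 CPM in mutants, against 2.7 and 1.92 CPM in wild type. The lowest and the highest of the 10 libraries were therefore both mutant, on different days. At 14 dpa the groups did not overlap, which held for Tnfsf11 and Tnfrsf11b among the 9 genes and for 31.6% of all genes in that direction. The 14 dpa log2 fold change of -1.83 (SE 0.86) did not pass in edgeR (adjusted p = 0.128). Without mutant 12 dpa replicate 3, which is not in that contrast but enters the shared estimate of spread, the value was -1.85 (SE 0.59) and passed (edgeR adjusted p = 0.0418, in a fit in which 18.0% of all genes were called lower), and with DESeq2 it was -1.85 (adjusted p = 0.0433). At 12 dpa the log2 fold change was 1.11 (SE 0.88, edgeR adjusted p = 0.408) with all libraries and -0.16 (SE 0.64, edgeR adjusted p = 0.892) without that library. Over both days it was -0.36 (SE 0.60, edgeR adjusted p = 0.654). Between the days the genotype contrast differed by -2.94 (SE 1.23), which had an unadjusted p of 0.0422 in edgeR (8.72% of all genes were under 0.05) and an adjusted p of 0.56. Without mutant 12 dpa replicate 3 that difference was -1.69 (SE 0.87), with an unadjusted p of 0.0866 in edgeR and an adjusted p of 0.681.

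Tnfrsf11a (ENSMUSG00000026321) had 4.42, 3.10 and 16.0 CPM in mutants at 12 dpa, against 5.2 and 6.94 CPM in wild type. On the later day it had 4.10, 3.22 and 4.34 CPM in mutants, against 4.99 and 4.18 CPM in wild type. Apart from mutant 12 dpa replicate 3, all libraries lay within 3.10 to 6.94 CPM. The log2 fold change over both days was 0.07 (SE 0.42, edgeR adjusted p = 0.911), and -0.47 (SE 0.18, edgeR adjusted p = 0.0594) without that library.

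The ratio of Tnfsf11 to Tnfrsf11b TPM sets the ligand beside its decoy within each library. At 12 dpa it was 3.56, 1.29 and 4.94 in mutants, against 0.620 and 0.756 in wild type. At 14 dpa it was 0.875, 1.03 and 2.08 in mutants, against 0.932 and 0.542 in wild type. The groups did not overlap at 12 dpa and overlapped at 14 dpa through mutant replicate 1. In that library Tnfsf11 had 14 counts and Tnfrsf11b had 21. The mean log2 ratio was 1.42 higher in mutants over both days, and from 1.22 to 1.70 higher when each library was left out in turn. No test was run on this ratio.

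**Figure D2:**
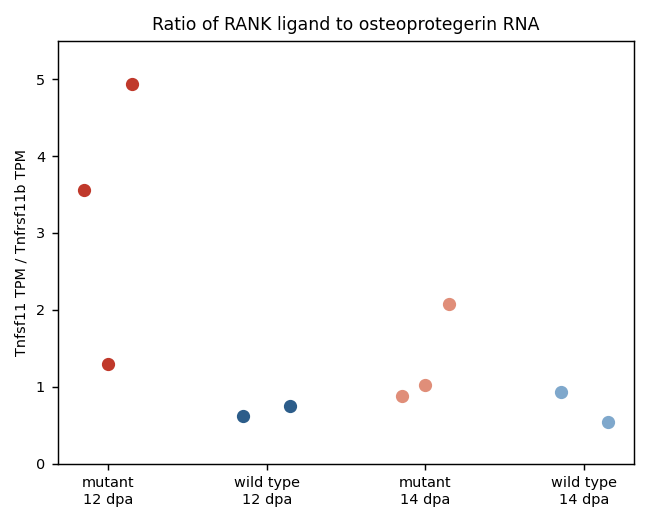
Ratio of Tnfsf11 TPM to Tnfrsf11b TPM in each library (vertical axis, no unit), with mutant left of wild type at 12 and at 14 days post amputation (dpa). The 3 mutant libraries at 12 dpa lie between 1.29 and 4.94, above both wild type libraries of that day, and at 14 dpa the lowest mutant library, 0.875, lies below the higher wild type library, 0.932.

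Among the genes of cell fusion and costimulation, mutants and wild type overlapped on each day, and none was called by edgeR in the fit on all 10 libraries. Dcstamp (ENSMUSG00000022303), a membrane protein needed for precursors to fuse, had 0.946, 0.543 and 4.77 CPM in mutants at 12 dpa, against 1.96 and 2.41 CPM in wild type. The values at 14 dpa were 0.638, 1.10 and 1.93 CPM in mutants, against 1.02 and 1.72 CPM in wild type. In the mutants at 12 dpa, replicates 1 and 2 lay below wild type and replicate 3 above it. Over both days the log2 fold change was -0.12 (SE 0.59, edgeR adjusted p = 0.887), and -0.86 (SE 0.35, edgeR adjusted p = 0.0758) without mutant 12 dpa replicate 3. On log2(TPM + 1) it was 0.13, beside a median of 0.14 over all genes on that scale. The effective length that RSEM assigned to Dcstamp was 817.5 to 1469.8 bases in mutants, against 1527.4 to 1729.6 bases in wild type libraries, without overlap.

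Ocstamp (ENSMUSG00000027670), a related fusion protein, had 1.76, 0.969 and 7.26 CPM in mutants at 12 dpa, against 2.57 and 3.33 CPM in wild type. At 14 dpa it had 0.521, 0.646 and 1.94 CPM in mutants, against 1.28 and 2.08 CPM in wild type. Its order over the libraries of 12 dpa was the same as that of Dcstamp. Mutant over wild type, both days together, gave a log2 fold change of -0.27 (SE 0.59, edgeR adjusted p = 0.737), and -0.92 (SE 0.41, edgeR adjusted p = 0.106) without that library.

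Oscar (ENSMUSG00000054594), a collagen receptor that signals through the adaptor FcRγ beside RANK, had 0.180, 0.413 and 1.20 CPM in mutants at 12 dpa, against 0.599 and 0.912 CPM in wild type. The libraries of 14 dpa gave 0.169, 0.268 and 0.583 CPM in mutants, against 0.438 and 0.526 CPM in wild type. On both days replicates 1 and 2 of the mutants lay below wild type and replicate 3 above it. The log2 fold change over both days was -0.42 (SE 0.52, edgeR adjusted p = 0.530), and -0.94 (SE 0.42, edgeR adjusted p = 0.103) without mutant 12 dpa replicate 3. Calcr had 0.0225, 0.0129 and 0.157 CPM in mutants at 12 dpa, against 0.0136 and 0 CPM in wild type.

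None of the 3 resorption genes was called by edgeR in the fit on all 10 libraries, and each was highest in mutant 12 dpa replicate 3. Atp6v0d2 (ENSMUSG00000028238), a subunit of the proton pump that acidifies the bone surface, had 3.92, 2.16 and 13.3 CPM in mutants at 12 dpa, against 8.20 and 9.91 CPM in wild type. On the later day it had 1.15, 2.11 and 4.07 CPM in mutants, against 3.62 and 4.49 CPM in wild type. Apart from that high library, 1 of 5 mutant libraries reached the lowest wild type value of its day, and it did so at 14 dpa. Over both days the log2 fold change was -0.61 (SE 0.51, edgeR adjusted p = 0.362) with all libraries. Without mutant 12 dpa replicate 3 it was -1.16 (SE 0.35) and passed (edgeR adjusted p = 0.0299), in a fit in which 21.7% of all genes were called lower.

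Ctsk (ENSMUSG00000028111) had 91.0, 63.0 and 486 CPM in mutants at 12 dpa, against 157 and 155 CPM in wild type. The values at 14 dpa were 40.03, 101 and 185 CPM in mutants, against 111 and 116 CPM in wild type. The wild type pair of each day differed little, while the mutants spread on both sides of it. Mutant over wild type, both days together, gave a log2 fold change of 0.20 (SE 0.65, edgeR adjusted p = 0.829), and -0.54 (SE 0.39, edgeR adjusted p = 0.302) without that library.

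Acp5 (ENSMUSG00000001348) had 76.5, 65.2 and 194 CPM in mutants at 12 dpa, against 85.1 and 107 CPM in wild type. At 14 dpa it had 62.2, 71.1 and 115 CPM in mutants, against 57.6 and 81.0 CPM in wild type. Its highest library exceeded its lowest by a smaller factor than in the other 8 genes tested, and its groups overlapped on both days. The log2 fold change over both days was 0.24 (SE 0.33, edgeR adjusted p = 0.592), and -0.09 (SE 0.20, edgeR adjusted p = 0.727) without that library.

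Over the 9 genes tested, the median log2 fold change over both days was -0.27, beside 0.02 over all genes. At 12 dpa none of the 9 was called by edgeR, either at an unadjusted p under 0.05, where 33.6% of all genes lay, or after adjustment, where 16.5% of all genes were called. At 14 dpa 1 was called, against 33.3% of all genes. Their median was 0.17 at 12 dpa and -0.51 at 14 dpa, beside 0.03 and -0.00 over all genes. Without mutant 12 dpa replicate 3 the median over both days was -0.92, with a range of -2.25 to -0.09, and the 12 dpa median was -1.10. The direction of that shift was fixed by the choice of the library, which was singled out by its height in these genes.

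**Figure D3:**
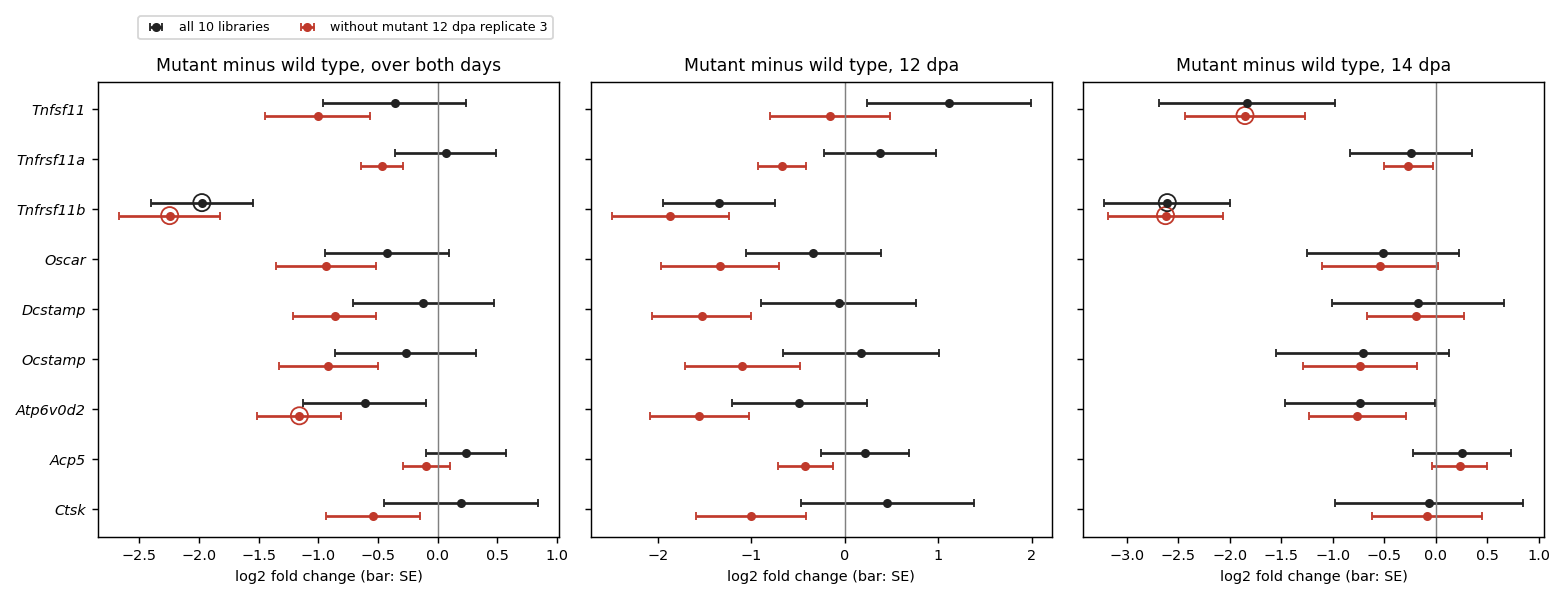
Log2 fold change of mutant over wild type (horizontal axes) for the 9 genes tested, over both days, at 12 and at 14 days post amputation (dpa); points are edgeR estimates, bars are SE, black is the fit on all 10 libraries, red the fit without mutant 12 dpa replicate 3, and a ring marks an adjusted p under 0.05. Tnfrsf11b is ringed over both days (-1.98) and at 14 dpa (-2.61) in black, and in red Atp6v0d2 over both days (-1.16) and Tnfsf11 at 14 dpa (-1.85) are ringed as well.

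Between days, none of the 9 genes was called within a genotype. In mutants the log2 fold change of 14 over 12 dpa ran from -2.57 for Tnfsf11 (SE 0.81, edgeR adjusted p = 0.158) to -0.43 for Acp5 (SE 0.42, edgeR adjusted p = 0.628), where 0.0346% of all genes were called. DESeq2 called Tnfsf11 alone among the 9 in this contrast, with all 10 libraries. Without mutant 12 dpa replicate 3 the Tnfsf11 value was -1.29 (SE 0.59, edgeR adjusted p = 0.392). The median of the 9 was -0.997 with all libraries and 0.03 without mutant 12 dpa replicate 3. In wild type it was -0.47, with Atp6v0d2 lowest (-1.16, SE 0.81, edgeR adjusted p = 0.727). In that contrast edgeR called 0 of 20216 genes (0.0%), and 8.18% had an unadjusted p under 0.05, none of them among the 9. For the change of the genotype contrast between days edgeR also called 0 genes (0.0%), with 8.72% at an unadjusted p under 0.05, Tnfsf11 among them. Without mutant 12 dpa replicate 3 the unadjusted p of Tnfsf11 in edgeR was 0.0866.

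The height of mutant 12 dpa replicate 3 was set against replicates 1 and 2 of its own group. The 9 genes were 2.34-fold (Tnfrsf11b) to 6.41-fold (Dcstamp) above the mean of that pair, with 6.31-fold for Ctsk, 5.31-fold for Tnfsf11 and 2.73-fold for Acp5. Their median was 4.37-fold, beside 0.995-fold over 20125 tested genes above 0 CPM in the pair. All 9 were at least 2-fold higher, as were 5.41% of those genes. Among genes with at least 1 CPM in the pair, all 6 of these genes that reached that level were at least 2-fold higher, against 1.89% of 13627 genes. In the pair itself, 8 of the 9 genes lay below both wild type libraries of 12 dpa in both libraries, which held for 31.0% of all genes, and Tnfsf11 was the exception. Replicate 3 was singled out by these same genes, so neither their height over the pair nor the level of the pair is independent of that choice.

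Other lists moved with that library to different degrees. Genes of the ITAM pathway, which carries the costimulatory signal beside RANK, had a median of 2.88-fold, and 6 of 9 were at least 2-fold higher. Osteoclastogenic cytokines and inhibitors stood at 1.76-fold with 6 of 14 tested genes at least 2-fold higher, and monocyte and macrophage markers at 1.55-fold with 5 of 15. Endothelial genes stood at 1.46-fold with 0 of 7, and osteoblast and osteocyte genes at 1.29-fold with 3 of 14. Macrophage markers summed to 177 CPM in that library, against 116 to 146 CPM in wild type libraries. The resorption machinery stood at 1.13-fold with 4 of 15 genes at least 2-fold higher, RANK signalling at 1.11-fold with 2 of 20, precursor fusion at 1.07-fold with 0 of 7, and the calcitonin family at 0.80-fold. Chondrocyte genes stood at 1.31-fold, keratinocyte genes at 1.05-fold and T and B cell genes at 0.568-fold. Within the resorption list the genes spread from Car2, at 0.568-fold, to Mmp9. Mmp9, a gelatinase abundant in osteoclasts and neutrophils, was chosen after its values were seen and had 912 CPM there, 6.35-fold above the pair. The part of the other cell types in the height of the osteoclast genes was not tested.

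**Figure D4:**
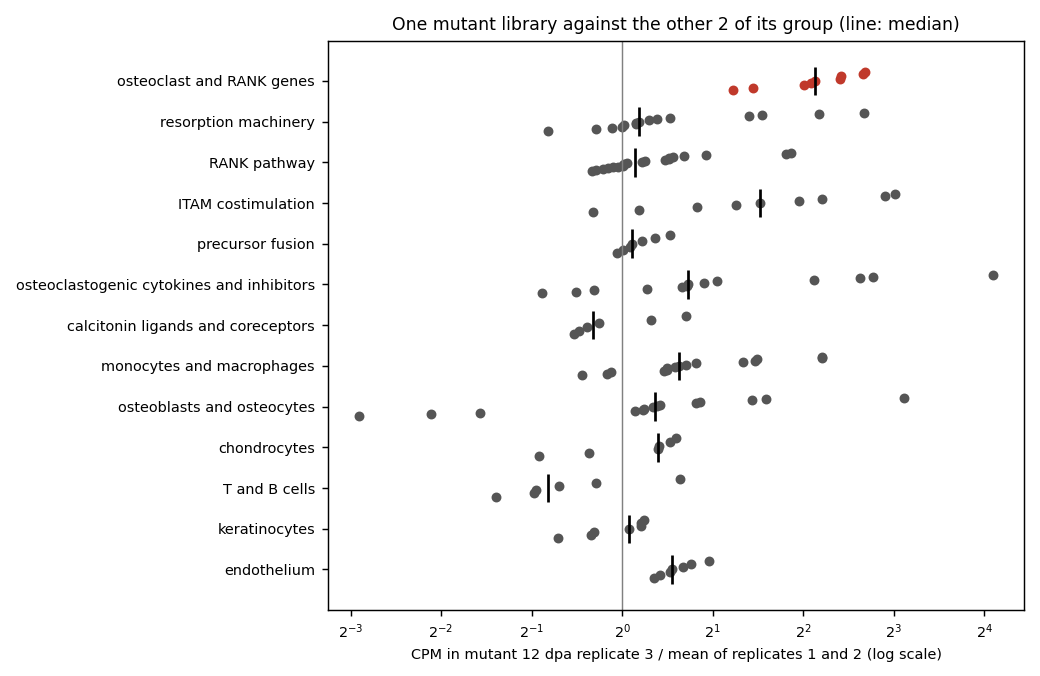
CPM in mutant 12 dpa replicate 3 divided by the mean of mutant 12 dpa replicates 1 and 2 (horizontal log axis, no unit) for the 9 osteoclast and RANK genes tested (red) and the tested genes of 12 related lists (grey); points are genes and lines are medians, and genes at 0 in the numerator or denominator are not drawn. The 9 genes lie between 2.34 and 6.41 with a median of 4.37, and the ITAM list follows with a median of 2.88.

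The wider pathway was read from lists of its parts, and the counts are over both days, beside 21.5% of all genes called higher and 22.2% called lower. Of 20 genes of RANK signalling, 8 rose, 2 fell and 10 did not pass, with a median log2 fold change of 0.33. The number that rose was 9 without mutant 12 dpa replicate 1 and 7 without replicate 2 of that group. It was also below 8 when any wild type library was left out. The adaptors and factors that rose did so by small amounts: Rela, an NF-kB subunit, had 65.0 ± 8.01 CPM in mutants (SD, n = 6) and 42.1 ± 4.64 CPM in wild type (SD, n = 4), with a log2 fold change of 0.63 (SE 0.10, edgeR adjusted p = 0.00116). Relb, of the alternative NF-kB arm, stood at 0.59 (SE 0.14, edgeR adjusted p = 0.00892). Mitf, a factor that drives Acp5 and Ctsk in osteoclasts and pigment genes in melanocytes, fell to 4.38 ± 1.49 CPM in mutants, against 35.4 ± 15.6 CPM in wild type (log2 fold change -2.99, SE 0.26, edgeR adjusted p = 0.000133).

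Of 15 genes of the resorption machinery, 4 rose, 4 fell and 7 did not pass (median -0.03). These counts depended on single libraries: without wild type 14 dpa replicate 2 there were 0 higher and 1 lower, without wild type 12 dpa replicate 2 there were 2 and 1, and without mutant 12 dpa replicate 3 there were 3 and 7. Replicate 2 of the 12 dpa mutants left 2 higher when omitted, as did replicate 1 of the 14 dpa wild types, and omitting replicate 1 of the 12 dpa wild types left 2 lower. Atp6v1a, a subunit of the proton pump found in most cells, rose by a log2 fold change of 0.43 (SE 0.10, edgeR adjusted p = 0.00808), but not without wild type 14 dpa replicate 2 (adjusted p = 0.0532). Car2, the carbonic anhydrase that supplies protons, fell to 32.0 ± 15.1 CPM in mutants, against 84.5 ± 25.1 CPM in wild type (log2 fold change -1.40, SE 0.35, edgeR adjusted p = 0.0133). It did not pass when wild type 12 dpa replicate 2 (edgeR adjusted p = 0.0538) or wild type 14 dpa replicate 2 (edgeR adjusted p = 0.0536) was left out. Snx10, a sorting nexin mutated in osteopetrosis, was called lower (-1.29, SE 0.38, edgeR adjusted p = 0.0252), a call lost on leaving out any of 4 libraries: mutant 14 dpa replicate 1, either wild type of 12 dpa, and wild type 14 dpa replicate 2 (-0.89). Mmp14, a membrane metalloproteinase that many mesenchymal cells make, fell as well (-0.87, SE 0.15, edgeR adjusted p = 0.00209). Of 9 ITAM genes, Plcg2 rose (0.62, SE 0.13, edgeR adjusted p = 0.00542) and 7 did not pass. Trem2, a receptor of that pathway, was called lower (-1.42, SE 0.43, edgeR adjusted p = 0.0255), but the call ended on leaving out either of replicates 1 and 2 of the 12 dpa mutants, either wild type library of that day, or replicate 1 of the 14 dpa wild type (edgeR adjusted p from 0.0503 to 0.0908). Of 7 genes of precursor fusion other than Dcstamp and Ocstamp, 5 rose and 2 did not pass, among them Adam8, a metalloprotease also made by granulocytes, at 17.6 ± 6.34 CPM in mutants and 6.98 ± 0.318 CPM in wild type (log2 fold change 1.28, SE 0.17, edgeR adjusted p = 0.000506). P2rx7, an ATP receptor, stood at 0.63, Sbno2 at 0.50 and Cd47 at 0.41 (edgeR adjusted p of 0.00114, 0.00258 and 0.00222).

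Of 14 tested cytokines and inhibitors of osteoclast formation, 5 rose, 3 fell and 6 did not pass. Tnf, which acts with RANK ligand on precursors, stood at 1.82 ± 0.978 CPM in mutants and 0.350 ± 0.0524 CPM in wild type (log2 fold change 2.31, SE 0.32, edgeR adjusted p = 0.00072). Osm, oncostatin M, stood at 0.768 ± 0.555 CPM in mutants and 0.0450 ± 0.0324 CPM in wild type (4.27, SE 0.62, edgeR adjusted p = 0.000798). Il1b stood at 6.13 ± 5.85 CPM in mutants and 0.315 ± 0.240 CPM in wild type (4.26, SE 0.84, edgeR adjusted p = 0.00467), with 17.8 CPM in mutant 12 dpa replicate 3. The Il1b value was 3.53 without that library and 5.37 without wild type 14 dpa replicate 1. Il27, a cytokine reported to restrain osteoclast formation, had 0.0448 CPM in mutant 12 dpa replicate 3 and 0 CPM in the other 5 mutant libraries, against 0.348 ± 0.0915 CPM in wild type (SD, n = 4). Of 6 tested calcitonin family ligands and coreceptors, 5 fell and 1 did not pass (median -1.20). Ramp2, a coreceptor that endothelium also expresses, fell to 2.46 ± 0.981 CPM in mutants, against 7.53 ± 1.25 CPM in wild type (-1.60, SE 0.28, edgeR adjusted p = 0.002). The log2 fold change of Ramp3 was -1.69, that of the ligand Adm -1.43 and that of Ramp1 -0.96 (edgeR adjusted p of 0.000343, 0.000133 and 0.0122), and Ramp1 did not pass without wild type 14 dpa replicate 1 (adjusted p = 0.0605).

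Marker lists of other cells gave the setting. Of 15 monocyte and macrophage markers, 7 fell and 8 did not pass (median -0.87). Those that fell included Cx3cr1 at -2.56 (-3.28 without mutant 14 dpa replicate 2), C1qb at -1.54, the mannose receptor Mrc1 at -1.48 (3.48 ± 1.84 CPM in mutants and 9.999 ± 3.74 CPM in wild type) and Adgre1, which encodes F4/80, at -1.38 (edgeR adjusted p from 0.00389 to 0.00844). Among the 8 that did not pass, Cd14 (0.99), Itgam (0.34) and Csf1r (0.21) lay above 0 and the rest below. Without mutant 12 dpa replicate 3 those values were 0.41 for Cd14, -0.24 for Itgam and -0.13 for Csf1r. The osteoblast and osteocyte list had 14 genes, of which 11 were called lower and 3 did not pass (median -2.30), but leaving out single libraries gave from 3 to 13 calls. Among the 12 dpa mutants, omitting replicate 1 left 6 calls, replicate 2 left 5 and replicate 3 left 7, and omitting replicate 3 of the 14 dpa mutants left 7. Omitting replicate 1 of the 12 dpa wild types left 5, and of the 14 dpa wild types, replicate 1 left 3 and replicate 2 left 7. Among its genes with the largest values, Ibsp (bone sialoprotein, -3.09) lost its call without wild type 14 dpa replicate 1 (adjusted p = 0.0646), while Bglap2 (-2.72), Sost (-2.53) and Ifitm5 (-2.43) lost theirs on leaving out any of 8, 6 and 7 of the 10 libraries. Without mutant 14 dpa replicate 2 these values were -4.06 for Ibsp, -3.70 for Bglap2, -3.24 for Sost and -3.99 for Ifitm5. Bglap2 was -2.09 without wild type 12 dpa replicate 1, and Sost was -1.27.

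Of 7 tested chondrocyte genes 6 fell and 1 did not pass (median -3.07), led by Col10a1 (-7.78, and -8.53 without mutant 12 dpa replicate 1), Col2a1 (-5.57), Col9a1 (-3.31) and Hapln1 (-3.07). All 7 endothelial genes fell (median -1.98), led by the receptor Kdr (-2.26), Cdh5 (-2.12), Eng (-2.05) and Emcn (-1.98). Of 7 keratinocyte genes 6 rose and 1 did not pass (median 1.04), led by Krt5 (1.32), Epcam (1.23), Krt14 (1.05) and Krt10 (1.04). Of 6 tested T and B cell genes 2 were called higher and 4 did not pass (median 1.33). Of that pair, Il7r passed with an edgeR adjusted p of 0.00116, and Cd3g, at 1.85, lost its call on leaving out any of 7 of the 10 libraries and was 2.60 without wild type 12 dpa replicate 2. The count called higher was 3 when replicate 3 of the 12 dpa mutants or replicate 1 of the 14 dpa mutants was omitted, and 1 when any of 6 other libraries was: the remaining 12 and 14 dpa mutants and replicate 1 of each wild type pair. Omitting replicate 2 of the 14 dpa mutants also gave 1 gene called lower. The part of these lists in the Tnfrsf11b and Mitf results was not tested.

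**Figure D5:**
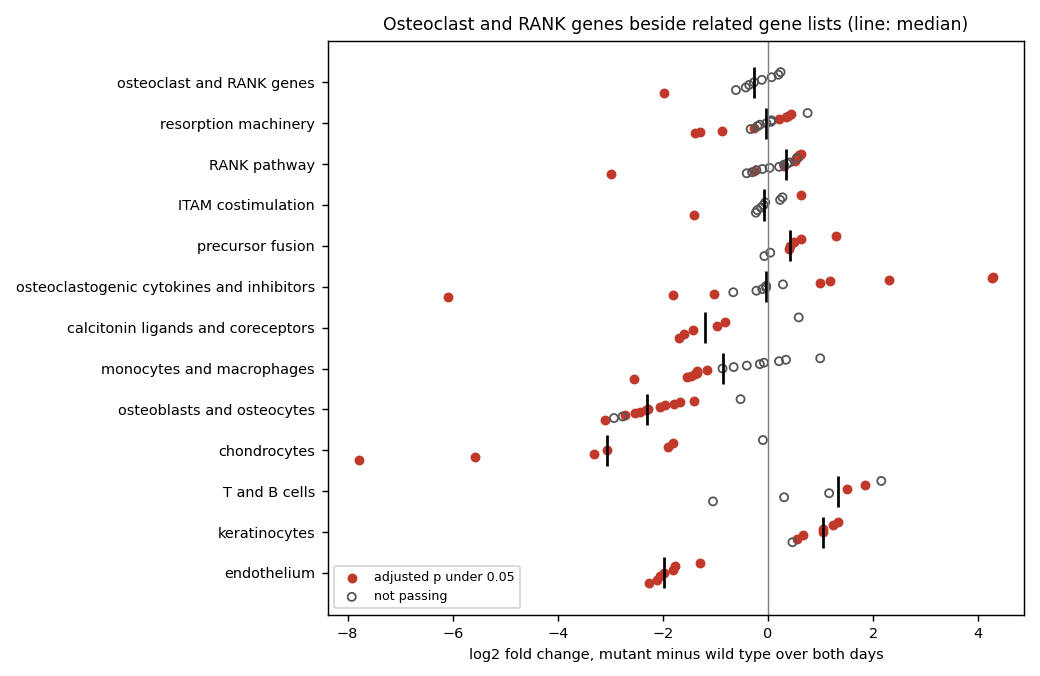
Log2 fold change of mutant over wild type over both days (horizontal axis, edgeR) for the 9 osteoclast and RANK genes tested and for the tested genes of 12 related lists; points are genes, filled red at an adjusted p under 0.05, and lines are medians. Of the 9 genes only Tnfrsf11b is filled, at -1.98, while the osteoblast and osteocyte, chondrocyte and endothelial lists have medians of -2.30, -3.07 and -1.98.

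The genes whose libraries rose and fell most like those of 3 chosen members were found by the root mean square difference of gene-centred log2(CPM + 0.5) over the 10 libraries, among 12699 coding genes with at least 1 CPM on average. For Acp5 they were Csf1r, the receptor of macrophage colony-stimulating factor (0.213), Spi1, which encodes PU.1 (0.217), and Nyap2 (0.237), beside a median of 0.549 over all genes compared. For Tnfsf11 they were Il1rl1, the interleukin-33 receptor (0.321), Akap6 (0.335) and Fgf7 (0.350), beside a median of 0.968. For Tnfrsf11b they were Grk5, a kinase of G protein-coupled receptors (0.263), Rnf157 (0.296) and Sorbs2 (0.298), beside a median of 0.989. Among members compared with Acp5, ranks ran from 10 (Dcstamp) to 12110 (Tnfrsf11b), with Ctsk at 4753 and Atp6v0d2 at 8536. Mutant 12 dpa replicate 3 entered these rankings, which were not repeated without it. There Csf1r stood 2.80-fold and Spi1 3.63-fold above replicates 1 and 2 of its group, beside 2.73-fold for Acp5.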

How the data were processed

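RNA was extracted with a column kit and sequenced as stranded total RNA, per the labels' protocols, while no source used here gives the strand setting of the counting. Tools listed in the submitters' processing notes are STAR 2.7.8a, RSEM 1.3.0 and FastQC, with build GRCm39. Per the file headers, the authors deposited RSEM expected counts per gene, not normalized, of which 13.9% were not whole, and TPM, which scales by length and then to the same total in each library. Groups came from titles, which number the wild type 14 dpa pair in the opposite order to the descriptions.

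Expected counts were rounded and tested with edgeR 4.0.16 (R 4.3.3, limma 3.58.1): filterByExpr with a minimum count of 10 left 20216 of 55416 genes, TMM factors scaled the libraries, and 1 quasi-likelihood fit with robust dispersions covered the 4 groups. Benjamini-Hochberg adjustment covered every gene kept by the filter, and 0.05 was the threshold. The biological coefficient of variation was 0.277. CPM use TMM-scaled sizes. The fit was tested on simulated data. Xist and Y-linked counts gave the sex (at least 500 Y-linked counts for a male): each group held 1 female library, and wild type 14 dpa replicate 1, counted as male with 12561 Y-linked counts, also had 1292 Xist counts, against 11 to 46 in the other males. No replicate was a repeat of another (chi-square over degrees of freedom, 114.2 to 223).

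Alternatives were DESeq2 1.42.0 and its size factors, upper quartile factors, no filter, a minimum count of 50, limma-trend on log2(TPM + 1) and log2(TPM + 0.1), the replicate number as a block, the tagged library in wild type, sex, male libraries, and leaving out each library. Members and lists were chosen with earlier results of these data known. All members are named; from each list up to 4 genes with the largest change among those passing over both days; and the 3 genes most like Acp5, Tnfsf11 and Tnfrsf11b. One gene that this rule takes in is not reported here.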

Additional observations from a re-analysis of the deposited data

Results flagged for a closer look

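In 7 genes the highest of the 6 mutant libraries, each time mutant 12 dpa replicate 3, stood apart from the other 5 by more than Dixon's 95% critical value. The gap to the next library, as a share of the range over the mutant libraries, was 0.771 for Tnfsf11, 0.898 for Tnfrsf11a, 0.672 for Dcstamp, 0.789 for Ocstamp, 0.734 for Calcr, 0.759 for Atp6v0d2 and 0.674 for Ctsk. Calcr rests on at most 14 counts in a library. Chance alone gives such a gap in about 1 in 20 groups of normally distributed values from a single population. The gaps here are on untransformed CPM, so that rate need not hold. The 7 genes share the same library, so they are not independent. The 6 mutant libraries span both days.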

How the results depend on the processing

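The number of genes called over both days (1, Tnfrsf11b) was 4 with the replicate number as a block, which added Atp6v0d2 (-1.43), Ocstamp (-1.30) and Oscar (-1.28), 0 with the tagged library in wild type, 1 to 2 when each library was left out, and 3 without mutant 12 dpa replicate 3 and mutant 14 dpa replicate 1, a choice made after seeing the data. At 12 dpa the count was 0 in all alternatives but that last one, which gave 3 (Atp6v0d2, Dcstamp and Tnfrsf11b). At 14 dpa the count of 1 was 2 with DESeq2, 3 with the block, 0 with the tagged library in wild type, 0 among males (where the wild type library is replicate 1, which also held Xist counts), 0 to 2 when each library was left out and 2 without both libraries. DESeq2 called 1 gene, Tnfsf11, for 14 over 12 dpa in mutants. The counts with the block have a limit, because wild type had no replicate 3. The replicate 3 term was fitted from mutant libraries alone, so the block in effect took those libraries out of the genotype contrast over both days. In Atp6v0d2, Ocstamp and Oscar they were the highest mutant libraries of their day. The added calls are therefore not independent of leaving out mutant 12 dpa replicate 3. The 77 list genes called became 0 with the tagged library in wild type, where edgeR calls were lost throughout the lists, and 51 among males, and 58 to 81 when each library was left out.

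Signs turned only among values that did not pass. Over both days Tnfsf11 was 0.0633 on log2(TPM + 1) and 0.12 with the tagged library in wild type. Tnfrsf11a was -0.0081 with upper quartile factors, -0.49 with the block, -0.0574 with sex as a covariate, -0.48 without both libraries, and -0.47 to 0.25 when each was left out. Dcstamp was 0.13 on log2(TPM + 1), 0.20 on log2(TPM + 0.1), 0.18 with the tagged library in wild type, 0.20 among males and -0.86 to 0.10 when each was left out. Ocstamp was 0.0046 on log2(TPM + 1), 0.0812 with the tagged library in wild type and 0.0909 among males. Acp5 was -0.23 with the block, -0.0054 without both libraries and -0.0944 to 0.37 when each was left out, and Ctsk -0.86, -0.34 and -0.54 to 0.41 under the same changes. Tnfsf11 at 12 dpa was -0.17 without both libraries and -0.16 to 1.56 when each was left out. On log2(TPM + 1) and log2(TPM + 0.1) the median of all genes was 0.14 and 0.26. Values with the block carry the limit given above. Beyond that, the cause of these shifts was not tested.

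The replicate numbers did not pair the libraries: deviations from the group means of same-numbered libraries correlated at -0.121 to 0.086. The block is thus a number only, and it also set aside the replicate 3 mutants in the genotype contrast over both days. Tnfrsf11b kept its direction in every alternative run. Where the tagged library was placed in wild type, its Lmx1b level matched its mutant title, not its tag. With 2 wild type libraries a day, the spread within that group is poorly known, and Oscar (13 to 107 counts a library) and Calcr are limited by depth. Tnfsf11 and Tnfrsf11b were also shallow at their lowest, with 14 and 21 counts in mutant 14 dpa replicate 1.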
